A study of Homo sapiens with 18 samples.

Results

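The genes described here are 10 regulators of the transcription factor NF-kappaB: BIRC2, BIRC3, MAP3K14, TRAF3, NFKB1, NFKB2, RELA, RELB, NFKBIA and TNFAIP3. They were taken by symbol from a table of read counts for 60649 genes, and all 10 were among the 15390 genes that passed the filter on low counts. The counts came from LNCaP, an androgen-responsive human prostate cancer cell line, sequenced as total RNA after removal of ribosomal RNA in 18 libraries. Cells received siRNA against UPF1, an RNA helicase of nonsense-mediated decay, siRNA against RCOR1, a scaffold of the CoREST repressor complex, or non-targeting control siRNA. Beginning 48 h later they were given 5 nM of the synthetic androgen R1881, or its ethanol vehicle, and all were collected 48 h into that treatment. The 6 groups were UPF1 siRNA with R1881, UPF1 siRNA with vehicle, RCOR1 siRNA with R1881, RCOR1 siRNA with vehicle, control siRNA with R1881 and control siRNA with vehicle, each with 3 libraries that the labels call biological triplicates. The labels name 1 siRNA treatment per gene in 1 cell line, so no value separates the target from other effects of its siRNA.

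NF-kappaB dimers are held inactive in the cytoplasm until a signal releases them. In the canonical branch, the inhibitor IkappaB-alpha, made by NFKBIA, is degraded and frees dimers of p50, made by NFKB1, and p65, made by RELA. In the non-canonical branch, the kinase NIK, made by MAP3K14, is kept low by a ubiquitin ligase complex of TRAF3, TRAF2 and the inhibitors of apoptosis BIRC2 (cIAP1) and BIRC3 (cIAP2). When that complex is lost, NIK accumulates and drives the processing of p100, made by NFKB2, to p52, the partner of RELB. BIRC3, NFKBIA, TNFAIP3, NFKB2 and RELB are themselves textbook targets of NF-kappaB, and NFKBIA and TNFAIP3 (A20, a ubiquitin-editing enzyme) act as feedback inhibitors. Only RNA was measured here, not the proteins, their processing or their location.

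The promoters of 3 members that are textbook NF-kappaB targets are printed because their genes moved with the conditions described below. Each is the RefSeq window (GRCh38.p14) from 250 bases before to 50 bases after the start given by RefSeq, 5′ to 3′ on the gene's own strand. Capitals mark matches to the kappaB motif, the 10-letter consensus bound by NF-kappaB dimers, searched on both strands. The BIRC3 window is chr11:102317234-102317533 on the plus strand, the TNFAIP3 window chr6:137867009-137867308 on the plus strand, and the NFKBIA window chr14:35404700-35404999 on the minus strand.
BIRC3: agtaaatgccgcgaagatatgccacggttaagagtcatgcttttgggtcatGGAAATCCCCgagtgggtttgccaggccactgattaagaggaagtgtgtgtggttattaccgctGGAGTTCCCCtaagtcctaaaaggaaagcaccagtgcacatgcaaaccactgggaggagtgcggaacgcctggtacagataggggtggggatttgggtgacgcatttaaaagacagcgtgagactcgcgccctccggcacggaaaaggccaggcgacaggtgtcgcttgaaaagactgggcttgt
TNFAIP3: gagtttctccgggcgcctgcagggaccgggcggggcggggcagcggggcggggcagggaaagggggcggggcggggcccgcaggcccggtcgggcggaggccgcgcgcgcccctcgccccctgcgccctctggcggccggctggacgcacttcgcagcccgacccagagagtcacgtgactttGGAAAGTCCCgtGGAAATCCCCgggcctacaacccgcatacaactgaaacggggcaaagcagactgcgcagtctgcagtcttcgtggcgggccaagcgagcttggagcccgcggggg
NFKBIA: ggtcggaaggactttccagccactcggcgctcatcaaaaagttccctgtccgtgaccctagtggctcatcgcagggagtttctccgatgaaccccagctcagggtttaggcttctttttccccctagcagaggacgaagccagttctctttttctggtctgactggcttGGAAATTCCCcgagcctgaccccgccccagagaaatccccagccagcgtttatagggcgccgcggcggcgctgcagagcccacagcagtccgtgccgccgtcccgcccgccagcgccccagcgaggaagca
BIRC3 had 2 separate matches, starting 199 and 135 bases before its RefSeq start, and TNFAIP3 had 2, starting 67 and 55 bases before its RefSeq start. NFKBIA had 1 match, 81 bases before its RefSeq start. The RefSeq starts of BIRC3 and TNFAIP3 lie downstream of the gene starts given below from the GENCODE annotation. Both TNFAIP3 matches therefore fall after its GENCODE start. The table held windows for 9 of the 10 members, and 6 of them had a match in at least 1 window. The others with a match were NFKB2, with 2 separate matches in each of 2 of its 3 windows, and NFKB1 and TRAF3, with 1 each. BIRC2, MAP3K14 and RELA had none in their windows. In all, 7 of the members' 14 windows held the motif. Of all 35116 promoter windows of this length, 11.3% held the motif and 0.994% held 2 or more separate matches, and 13.3% of the 27305 genes with a window had a match in at least 1. A match describes the letters of a window and is no measure of binding.

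Totals per library lay between 10299607 and 17338235 counts. The targeted gene was low where it should be: UPF1 averaged 26.3 CPM (read counts scaled to the depth of each library) with UPF1 siRNA and R1881 and 22.8 CPM with UPF1 siRNA and vehicle, against 149 and 134 CPM with control siRNA in R1881 and vehicle. RCOR1 averaged 12.5 and 12.8 CPM with RCOR1 siRNA in R1881 and vehicle, against 79.7 and 99.6 CPM with control siRNA. The 6 luminal prostate markers summed to between 4190 and 10800 CPM in every library. The 6 leukocyte markers summed to between 0.161 and 1.36 CPM, with CD3E at 0 in all libraries. Among endothelial markers, CDH5 was at 0 in all libraries, while VWF lay between 25.2 and 26.6 CPM with UPF1 siRNA in vehicle and between 9.99 and 14.0 CPM with control siRNA in vehicle. The 5 stromal markers summed to between 18.3 and 23.2 CPM with UPF1 siRNA in vehicle, against 12.4 to 14.1 CPM with control siRNA in vehicle. Of these, COL3A1 had 9.09 to 12.8 CPM against 3.21 to 4.70 CPM, COL1A1 had 8.30 to 10.3 CPM against 9.17 to 9.85 CPM, COL1A2 was at 0 in all libraries, and DCN and LUM stayed under 0.4 CPM. The part of VWF and the stromal markers in the results below was not tested. Fewer cells of a state and less RNA per cell cannot be told apart in such bulk libraries.

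Libraries of one group also differed in their content of AT-rich transcripts. The median deviation of genes under 40% GC from their mean over all libraries ran between -0.63 and 0.42 on the log2 scale. The lowest values, -0.63 and -0.44, belonged to replicates 1 and 2 of UPF1 siRNA with R1881, while replicate 3 of that group stood at 0.08. The nuclear RNA MALAT1 was also low in these libraries, at 3760 and 4590 CPM in replicates 1 and 2 against 21400 CPM in replicate 3, in a series that reached 35100 CPM. The part of either in the results below was not tested. BIRC3 and BIRC2 have exons of 34.8% and 38% GC, and are the only members under 40% GC. Their results with UPF1 siRNA and R1881 are therefore also given without replicates 1 and 2. In that fit the group has 1 library, assumed to vary like the others. Control libraries also differed, with -0.32 in replicate 1 of control siRNA with R1881 and in replicate 2 of control siRNA with vehicle. BIRC3 there had 27.9 and 7.63 CPM and BIRC2 35 and 28.5 CPM, each the lowest of its group. These control libraries are not among those called AT-poor below, and were left out only 1 at a time.

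The members differed widely in level. Per kilobase of exon, NFKBIA was highest in every group, with 63.2 ± 3.26 CPM per kb with UPF1 siRNA and R1881 and 26.8 ± 2.26 CPM per kb with control siRNA and vehicle (SD, n = 3 each). RELB was lowest in every group, with 2.73 ± 0.185 CPM per kb with UPF1 siRNA and R1881 and 0.651 ± 0.0641 CPM per kb with control siRNA and vehicle. BIRC3 ranked just above TNFAIP3 and RELB with control siRNA in vehicle, at 1.37 ± 0.315 CPM per kb, and near BIRC2 with UPF1 siRNA in vehicle, at 9.99 ± 1.77 against 11.9 ± 2.13 CPM per kb for BIRC2.

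**Figure D1:**
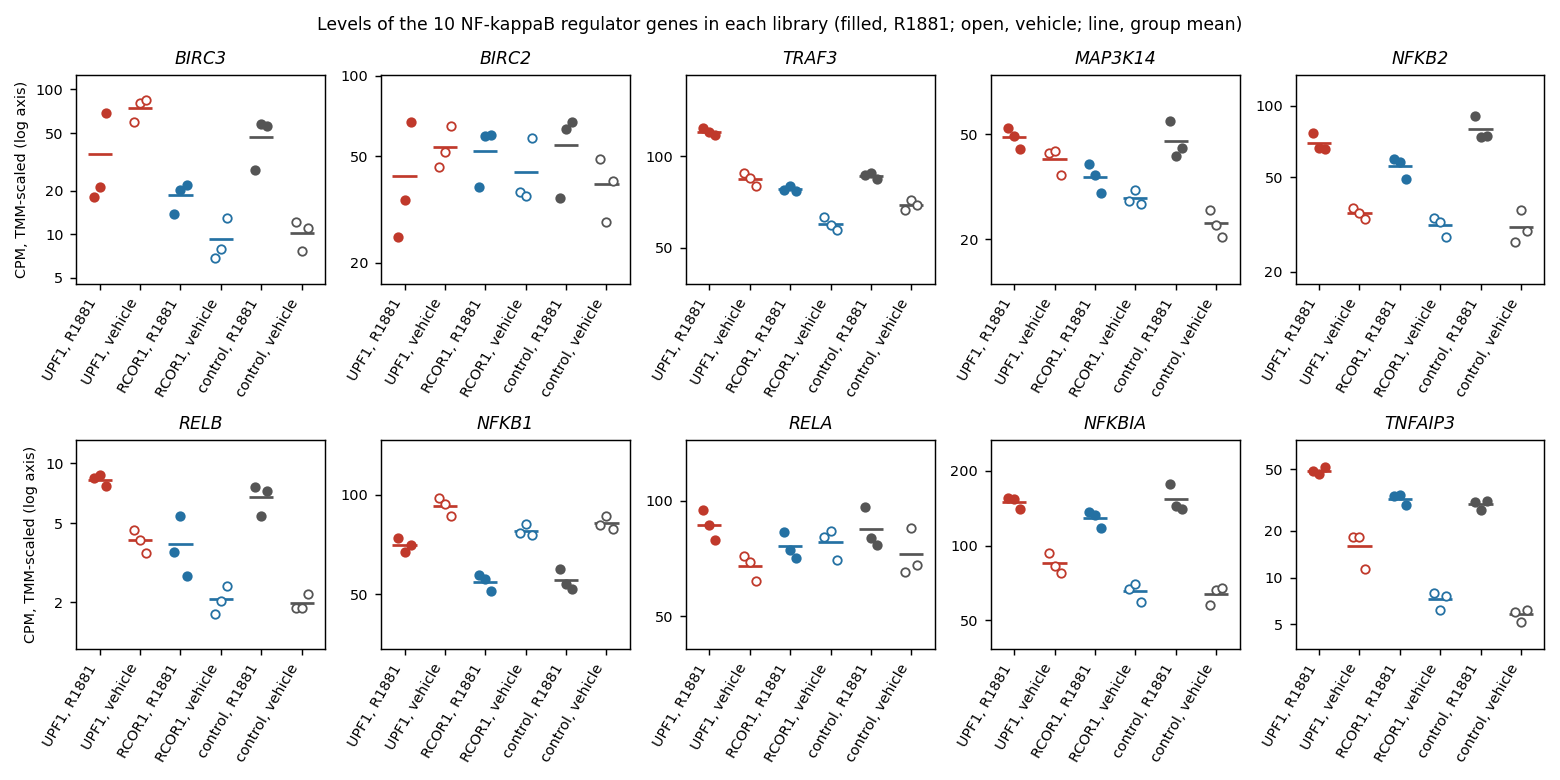
CPM of each member in each library (log axis), by group: points are libraries (filled, R1881; open, vehicle) and lines are group means of 3. BIRC3 stands between 59.8 and 84.5 CPM with UPF1 siRNA in vehicle and between 7.63 and 12.2 CPM with control siRNA in vehicle, while NFKB1 is lower in R1881 than in vehicle under every siRNA.

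BIRC3 (chromosome 11, 102317450 to 102339403, plus strand, in GENCODE v29 on GRCh38) encodes cIAP2. It rose with UPF1 siRNA in vehicle and with R1881 in control cells, both measured against the same 3 libraries of control siRNA with vehicle. Its log2 fold change with UPF1 siRNA in vehicle was the largest of the 10 members. With UPF1 siRNA in vehicle it had 59.8, 80.9 and 84.5 CPM, against 12.2, 7.63 and 11.0 CPM with control siRNA in vehicle. The lowest UPF1 siRNA library stood above every control library. The log2 fold change was 2.87 ± 0.453 (SE; a 7.31-fold rise; edgeR adjusted p = 0.000137), and it lay between 2.69 and 3.01 when each library was left out in turn.

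R1881 raised BIRC3 in control cells. Its levels were 27.9, 58.0 and 55.7 CPM with control siRNA and R1881, against 12.2, 7.63 and 11.0 CPM with control siRNA and vehicle. The groups did not overlap, and the log2 fold change was 2.2 ± 0.447 (edgeR adjusted p = 0.000962). With RCOR1 siRNA it had 13.8, 20.4 and 21.9 CPM in R1881 against 6.85, 7.96 and 12.9 CPM in vehicle, also without overlap. That log2 fold change was 1.02 ± 0.451 and did not pass (edgeR adjusted p = 0.0997), while it passed with only the groups compared (adjusted p = 0.0141), without the low-count filter (adjusted p = 0.000348) and with GC offsets (0.82, adjusted p = 0.00761).

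With UPF1 siRNA, BIRC3 was not called different between R1881 and vehicle. The libraries had 18, 21.3 and 68.9 CPM in R1881, against 59.8, 80.9 and 84.5 CPM in vehicle. Replicates 1 and 2 lay below every vehicle library, and replicate 3 lay among them. The log2 fold change was -1.07 ± 0.416 with an edgeR adjusted p of 0.0505, just short of the threshold of 0.05. It was -1.93 (adjusted p = 0.000257) without replicate 3 of UPF1 siRNA with R1881, and -1.21 (adjusted p = 0.046) without replicate 1 of UPF1 siRNA with vehicle. With replicates 1 and 2 of UPF1 siRNA with R1881 both left out, it was -0.15 (adjusted p = 0.85). Several other settings put it past the threshold (adjusted p = 0.0371 with DESeq2 size factors, 0.0214 with library size alone, 2.77e-05 without the low-count filter and 0.0467 by the DESeq2 Wald test). It stayed uncalled with only the groups compared and with GC offsets.

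In R1881, BIRC3 with UPF1 siRNA overlapped control siRNA, which had 27.9, 58.0 and 55.7 CPM. The log2 difference was -0.40 ± 0.416 (edgeR adjusted p = 0.494). It was -1.25 (adjusted p = 0.00735) without replicate 3 of UPF1 siRNA with R1881, 0.50 without replicates 1 and 2, and 0.19 with GC offsets, so its direction depended on these libraries.

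The BIRC3 response to androgen differed between UPF1 siRNA and control siRNA by -3.26 ± 0.61 on the log2 scale (interaction; edgeR adjusted p = 0.00969). The interaction stayed called when any 1 library was left out, with values between -4.12 and -2.93. With both AT-poor libraries of UPF1 siRNA with R1881 left out it was -2.31 with an adjusted p of 0.0863. A fit with offsets for GC content, chosen after seeing the data, gave -2.55 (adjusted p = 3.7e-05). The RCOR1 interaction of BIRC3 was -1.17 ± 0.627 and was not called (edgeR adjusted p = 0.556). With GC offsets the RCOR1 interaction passed (-1.33, adjusted p = 0.0282).

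In R1881, BIRC3 had 13.8, 20.4 and 21.9 CPM with RCOR1 siRNA, against 27.9, 58.0 and 55.7 CPM with control siRNA. No RCOR1 siRNA library reached the lowest control library. The log2 difference of -1.34 ± 0.429 missed the threshold (edgeR adjusted p = 0.0535), and it passed with replicate 1 of control siRNA with R1881 left out (-1.60, adjusted p = 0.0283) and with GC offsets (-1.41, adjusted p = 8.13e-05). It was also called by the DESeq2 Wald test (adjusted p = 0.0377), with DESeq2 size factors (0.047), with only the groups compared (0.0344) and without the low-count filter (8.08e-06). In vehicle the log2 difference was -0.16, with a 95% interval between -1.14 and 0.82.

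BIRC2 (cIAP1; chromosome 11, 102347211 to 102378670, plus strand) is the tandem neighbour of BIRC3, 7808 bases downstream. BIRC2 was called in none of the 11 comparisons. Its levels were 25.1, 34.4 and 67.3 CPM with UPF1 siRNA and R1881, 45.7, 52.1 and 64.7 CPM with UPF1 siRNA and vehicle, 35.0, 63.1 and 67.1 CPM with control siRNA and R1881, and 49.0, 28.5 and 40.4 CPM with control siRNA and vehicle. These 4 groups overlapped, and with UPF1 siRNA and R1881 the AT-poor replicates 1 and 2 were the low libraries. UPF1 siRNA against control siRNA gave log2 fold changes of -0.39 ± 0.338 in R1881 and 0.46 ± 0.338 in vehicle. Without replicate 3 of UPF1 siRNA with R1881, BIRC2 passed as lower with UPF1 siRNA than with control siRNA in R1881 (-0.88, edgeR adjusted p = 0.0412), as lower in R1881 than in vehicle with UPF1 siRNA (-0.86, adjusted p = 0.0365), and as lower with UPF1 siRNA than with RCOR1 siRNA in R1881 (-0.82, adjusted p = 0.0484). With replicates 1 and 2 left out in place of replicate 3, these log2 differences turned to 0.24, 0.29 and 0.31, and none was called. With GC offsets they were -0.01, 0.07 and 0.13, so that their direction depended on the libraries and the setting. BIRC2 passed with GC offsets as higher in R1881 than in vehicle with control siRNA (0.41, adjusted p = 0.0267).

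BIRC3 was also set against BIRC2 in the same library, as a ratio that moves with either gene. The log2 ratio of BIRC3 to BIRC2 counts averaged -0.38 with UPF1 siRNA and R1881 (between -0.69 and 0.03) and 0.47 with UPF1 siRNA and vehicle (0.39 to 0.64). It averaged -1.49 with RCOR1 siRNA and R1881 (-1.54 to -1.45) and -2.25 with RCOR1 siRNA and vehicle (-2.43 to -2.16). With control siRNA it averaged -0.24 in R1881 (-0.33 to -0.12) and -1.93 in vehicle (-2.01 to -1.88). The ratio in R1881 therefore stood above that in vehicle in every library with RCOR1 siRNA or control siRNA, and below it in every library with UPF1 siRNA. The spread of the ratio was widest with UPF1 siRNA and R1881 (SD 0.372). There the AT-poor replicates 1 and 2 had -0.48 and -0.69, and replicate 3 had 0.03. These ratios are a description with no test.

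**Figure D2:**
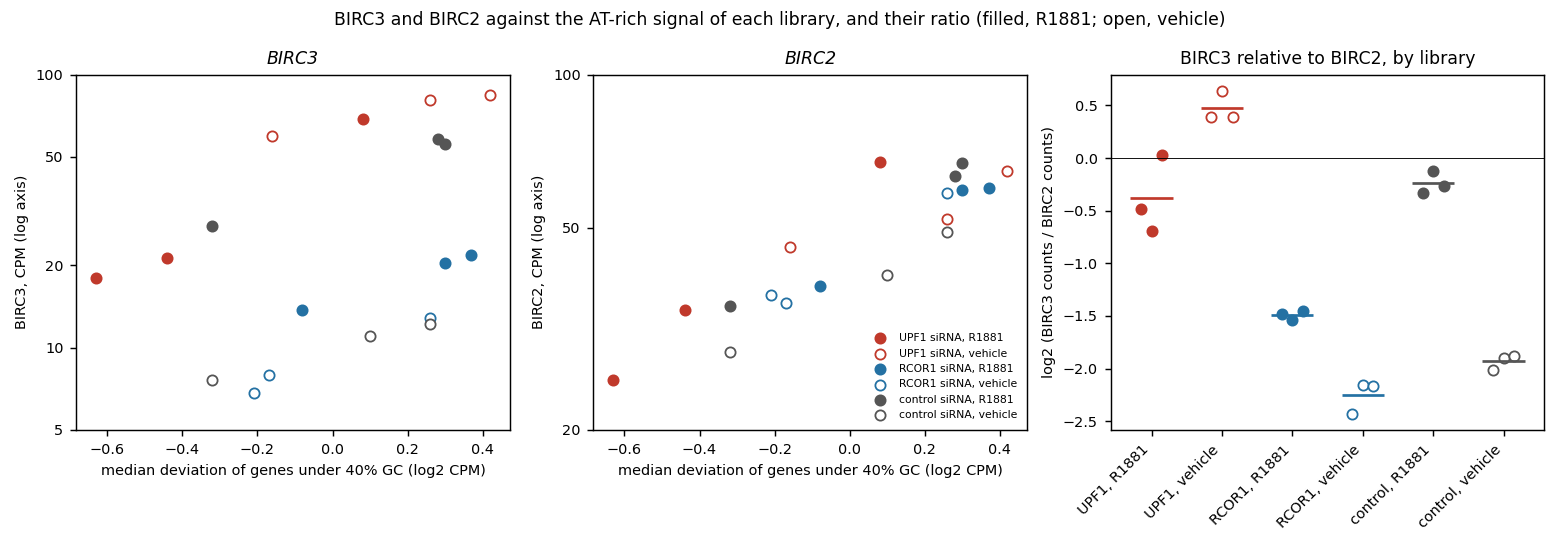
Left and centre, BIRC3 and BIRC2 in CPM (log axis) against the median log2 deviation of genes under 40% GC in each library; right, the log2 ratio of BIRC3 to BIRC2 counts by group, with group means as lines (filled, R1881; open, vehicle). BIRC2 is lowest, at 25.1 CPM, in the library with the lowest deviation of -0.63, while the ratio separates UPF1 siRNA with vehicle (0.39 to 0.64) from control siRNA with vehicle (-2.01 to -1.88).

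TRAF3 (chromosome 14, 102777476 to 102911500, plus strand) is the adaptor that brings NIK to the ligase complex. It had 124, 120 and 118 CPM with UPF1 siRNA and R1881, 88.1, 84.9 and 79.7 CPM with UPF1 siRNA and vehicle, 86.7, 88.1 and 84.4 CPM with control siRNA and R1881, and 66.9, 72.0 and 69.4 CPM with control siRNA and vehicle. The libraries of UPF1 siRNA with R1881 stood above all others. TRAF3 rose with UPF1 siRNA by 0.48 ± 0.0646 in R1881 and 0.28 ± 0.0648 in vehicle on the log2 scale (edgeR adjusted p = 4.26e-05 and 0.00322). The UPF1 effect in vehicle was not called with only the groups compared (adjusted p = 0.0674) or without the low-count filter (adjusted p = 0.227). TRAF3 also rose with R1881 under all 3 siRNAs, by 0.52 with UPF1 siRNA, 0.38 with RCOR1 siRNA and 0.32 with control siRNA. Scaled by library size alone, the last 2 were 0.19 and 0.07 and were no longer called, in a setting that moved the median of all genes to -0.17 and -0.22. The response in control cells was also not called without the low-count filter (0.29, adjusted p = 0.114) or with only the groups compared (0.27, adjusted p = 0.0721). RCOR1 siRNA libraries had 63.0, 59.4 and 57.2 CPM in vehicle, below every control library, and TRAF3 fell by 0.21 ± 0.065 on the log2 scale (edgeR adjusted p = 0.0443). That call was lost when any 1 of the 6 libraries was left out (adjusted p between 0.0509 and 0.137), and in every other setting but GC offsets (adjusted p between 0.0967 and 0.589).

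MAP3K14 (chromosome 17, 45263119 to 45317145, minus strand) encodes NIK, the kinase that starts the non-canonical branch. It had 42.5, 43.3 and 35.0 CPM with UPF1 siRNA in vehicle, against 25.8, 22.7 and 20.3 CPM with control siRNA in vehicle. The groups did not overlap, and MAP3K14 rose by 0.81 ± 0.136 on the log2 scale (edgeR adjusted p = 0.00023). In R1881 the levels met: 52.9, 49.2 and 44.1 CPM with UPF1 siRNA lay among 56.2, 41.4 and 44.2 CPM with control siRNA, a log2 difference of 0.04 with a 95% interval between -0.24 and 0.33.

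For MAP3K14, the androgen response was called in control cells and, in the fit reported, in neither knockdown. R1881 raised it by 1.04 ± 0.136 with control siRNA (edgeR adjusted p = 1.38e-05), and the log2 fold changes were 0.28 ± 0.133 with UPF1 siRNA and 0.27 ± 0.135 with RCOR1 siRNA, neither of them called. With GC offsets the response with RCOR1 siRNA was called (0.38, adjusted p = 0.00545). The interaction was -0.77 ± 0.189 with UPF1 siRNA (edgeR adjusted p = 0.0425) and -0.77 ± 0.191 with RCOR1 siRNA (edgeR adjusted p = 0.0779). The UPF1 interaction was lost when 9 of its 12 libraries were left out in turn, all but replicate 1 of control siRNA with vehicle, replicate 3 of UPF1 siRNA with vehicle and replicate 3 of UPF1 siRNA with R1881. In the 9 fits without a call its value lay between -0.83 and -0.55 and its adjusted p between 0.0689 and 0.112. With both AT-poor libraries left out it was -0.90 (adjusted p = 0.196), and the call was lost with DESeq2 size factors (-0.75, adjusted p = 0.069), library size alone (-0.62, adjusted p = 0.117) and only the groups compared (-0.70, adjusted p = 0.14). Both interactions passed with GC offsets, at -0.84 (adjusted p = 0.00111) and -0.67 (adjusted p = 0.0136).

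RCOR1 siRNA libraries with R1881 had 38.6, 34.9 and 30.0 CPM of MAP3K14, below every control library with R1881, and the log2 fold change was -0.46 ± 0.134 (edgeR adjusted p = 0.0357). That call was lost without replicate 1 (-0.30, adjusted p = 0.236) or replicate 3 (-0.51, adjusted p = 0.0683) of control siRNA with R1881, and without replicate 2 (-0.46, adjusted p = 0.0995) or replicate 3 (-0.36, adjusted p = 0.17) of RCOR1 siRNA with R1881. It was also lost with DESeq2 size factors (adjusted p = 0.0589), library size alone (0.152), no low-count filter (0.0729) and only the groups compared (0.156). The antisense gene MAP3K14-AS1 shares 713 exon bases with MAP3K14, and the strand setting of the counting is not given in the sources used here, so reads of that stretch cannot be told apart. MAP3K14-AS1 itself averaged 15.3 CPM with UPF1 siRNA and 13 CPM with control siRNA in vehicle and was called in no comparison.

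NFKB2 (chromosome 10, 102394110 to 102402529, plus strand), the source of p52, followed androgen rather than UPF1. It had 76.5, 66.0 and 65.9 CPM with UPF1 siRNA and R1881, against 37.2, 35.4 and 33.3 CPM with UPF1 siRNA and vehicle. With control siRNA it had 90.0, 73.6 and 74.3 CPM in R1881, against 26.7, 36.2 and 29.7 CPM in vehicle. The R1881 groups stood wholly above the vehicle groups, and NFKB2 rose by 0.98 ± 0.124 with UPF1 siRNA, 0.83 ± 0.124 with RCOR1 siRNA and 1.36 ± 0.125 with control siRNA (log2; edgeR adjusted p = 1.11e-05, 7.68e-05 and 2.83e-07). UPF1 siRNA against control siRNA gave log2 fold changes of -0.19 ± 0.121 in R1881 and 0.19 ± 0.124 in vehicle, not called. With GC offsets both passed, at -0.19 (adjusted p = 0.0172) and 0.29 (adjusted p = 0.00143). The UPF1 interaction was -0.38 ± 0.174 (edgeR adjusted p = 0.239) and the RCOR1 interaction -0.53 ± 0.174 (edgeR adjusted p = 0.242), neither called. Both interactions passed with GC offsets, at -0.48 (adjusted p = 0.0029) and -0.44 (adjusted p = 0.0129).

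With RCOR1 siRNA and R1881, NFKB2 had 59.8, 58.1 and 49.0 CPM, below every library of control siRNA with R1881. It fell by 0.51 ± 0.122 on the log2 scale (edgeR adjusted p = 0.0119). That call was lost without replicate 1 of control siRNA with R1881 (-0.40, adjusted p = 0.0782) or replicate 3 of RCOR1 siRNA with R1881 (-0.42, adjusted p = 0.0764), with library size alone (-0.42, adjusted p = 0.0782) and with only the groups compared (-0.48, adjusted p = 0.0753). In vehicle the log2 difference between RCOR1 siRNA and control siRNA was 0.02, with a 95% interval between -0.24 and 0.28.

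RELB (chromosome 19, 45001430 to 45038198, plus strand), the partner of p52, was the least abundant factor. It had 8.42, 8.75 and 7.66 CPM with UPF1 siRNA and R1881, 4.61, 4.11 and 3.54 CPM with UPF1 siRNA and vehicle, 7.57, 5.41 and 7.23 CPM with control siRNA and R1881, and 1.86, 1.87 and 2.2 CPM with control siRNA and vehicle. UPF1 siRNA libraries stood above control libraries in both treatments. RELB rose with UPF1 siRNA in vehicle by 1.06 ± 0.232 on the log2 scale (edgeR adjusted p = 0.00217), while the value in R1881 was 0.30 ± 0.192 and not called. It rose with R1881 by 1.02 with UPF1 siRNA, 0.92 with RCOR1 siRNA and 1.77 with control siRNA (log2; edgeR adjusted p = 0.00073, 0.00621 and 9.94e-06). The first of these missed the threshold with both AT-poor libraries left out (0.87, adjusted p = 0.0557).

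RCOR1 siRNA libraries with R1881 had 3.59, 5.44 and 2.69 CPM of RELB, overlapping control siRNA with R1881 at 1 library. The log2 fold change was -0.79 ± 0.207 (edgeR adjusted p = 0.0202). It was lost without replicate 1 (-0.68, adjusted p = 0.0956) or replicate 3 (-0.74, adjusted p = 0.0707) of control siRNA with R1881, and without replicate 1 (-0.73, adjusted p = 0.0743) or replicate 3 (-0.58, adjusted p = 0.104) of RCOR1 siRNA with R1881. It was also lost with only the groups compared (-0.76, adjusted p = 0.129).

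NFKB1 (chromosome 4, 102501329 to 102617302, plus strand), the source of p50, was the only member called lower in R1881. It had 73.8, 66.9 and 70.2 CPM in R1881 against 97.6, 93.9 and 86.3 CPM in vehicle with UPF1 siRNA, 57.1, 55.4 and 51.2 CPM against 76.7, 81.6 and 75.3 CPM with RCOR1 siRNA, and 59.4, 53.6 and 52.0 CPM against 81.1, 86.3 and 78.8 CPM with control siRNA. Every R1881 library stood below every vehicle library of the same siRNA. NFKB1 fell by 0.40 with UPF1 siRNA, 0.51 with RCOR1 siRNA and 0.58 with control siRNA (log2; edgeR adjusted p = 0.000714, 9.44e-05 and 2.05e-05). With UPF1 siRNA it was higher than with control siRNA in R1881, by 0.35 ± 0.0781 (edgeR adjusted p = 0.0027), a call lost without replicate 3 of control siRNA with R1881 (0.27, adjusted p = 0.0659) and without both AT-poor libraries (0.30, adjusted p = 0.145). In vehicle the log2 difference was 0.17 ± 0.0775 and was not called, except with GC offsets (0.15, adjusted p = 0.0416).

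RELA (chromosome 11, 65653596 to 65663094, minus strand), the source of p65, was called in 1 comparison only. It had 94.5, 86.3 and 79.3 CPM with UPF1 siRNA and R1881, against 71.7, 69.2 and 61.7 CPM with UPF1 siRNA and vehicle. The groups did not overlap, and RELA rose by 0.36 ± 0.119 on the log2 scale (edgeR adjusted p = 0.0234). That call was lost when replicate 2 (0.38, adjusted p = 0.0506) or replicate 3 (0.30, adjusted p = 0.101) of UPF1 siRNA with vehicle was left out, and likewise without replicate 1 (0.29, adjusted p = 0.106) or replicate 2 (0.37, adjusted p = 0.0543) of UPF1 siRNA with R1881. It was also lost without both AT-poor libraries (0.20, adjusted p = 0.501) and with library size alone (0.27, adjusted p = 0.159). The R1881 response was -0.04 ± 0.119 with RCOR1 siRNA and 0.21 ± 0.119 with control siRNA. The last of these passed without replicate 2 of control siRNA with vehicle (0.33, adjusted p = 0.043) and with GC offsets (0.23, adjusted p = 0.00236), and no siRNA comparison of RELA was called.

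NFKBIA (chromosome 14, 35401511 to 35404749, minus strand), the inhibitor that NF-kappaB itself induces, rose with androgen under every siRNA. With control siRNA it had 178, 144 and 141 CPM in R1881, against 57.5, 66.1 and 67.4 CPM in vehicle, and with UPF1 siRNA it had 155, 154 and 141 CPM in R1881, against 93.6, 83.1 and 77.6 CPM in vehicle. The R1881 libraries stood above all vehicle libraries, while UPF1 siRNA and control siRNA overlapped in R1881 and were apart in vehicle. R1881 raised NFKBIA by 0.82 with UPF1 siRNA, 0.99 with RCOR1 siRNA and 1.28 with control siRNA (log2; edgeR adjusted p = 1.47e-05, 2.93e-06 and 1.11e-07). UPF1 siRNA raised it in vehicle by 0.41 ± 0.107 (edgeR adjusted p = 0.00686), against a log2 difference of -0.04 ± 0.106 in R1881.

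TNFAIP3 (chromosome 6, 137867188 to 137883312, plus strand), which encodes A20, responded to androgen in all 3 siRNA arms. It had 48.5, 46.7 and 51.4 CPM with UPF1 siRNA and R1881, 18.2, 18.3 and 11.4 CPM with UPF1 siRNA and vehicle, 33.3, 33.9 and 29.3 CPM with RCOR1 siRNA and R1881, and 7.91, 6.21 and 7.63 CPM with RCOR1 siRNA and vehicle. With control siRNA it had 30.6, 27.4 and 31.2 CPM in R1881 and 6.03, 5.2 and 6.14 CPM in vehicle. All R1881 libraries stood above all vehicle libraries, and UPF1 siRNA stood above the other siRNAs within each treatment.

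R1881 raised TNFAIP3 by 1.61 ± 0.147 with UPF1 siRNA, 2.15 ± 0.156 with RCOR1 siRNA and 2.36 ± 0.16 with control siRNA (log2; edgeR adjusted p = 2.73e-07, 2.22e-08 and 7.39e-09). UPF1 siRNA raised it by 0.72 ± 0.142 in R1881 and 1.46 ± 0.16 in vehicle (edgeR adjusted p = 0.00124 and 4.07e-06). The UPF1 interaction was -0.75 ± 0.213 and did not pass (edgeR adjusted p = 0.0757). It passed without replicate 3 of UPF1 siRNA with vehicle (-0.93, adjusted p = 0.00532) and with GC offsets (-0.84, adjusted p = 0.0159). The called androgen responses of NFKBIA and TNFAIP3, and their called differences between UPF1 siRNA and control siRNA, held when any 1 library was left out.

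**Figure D3:**
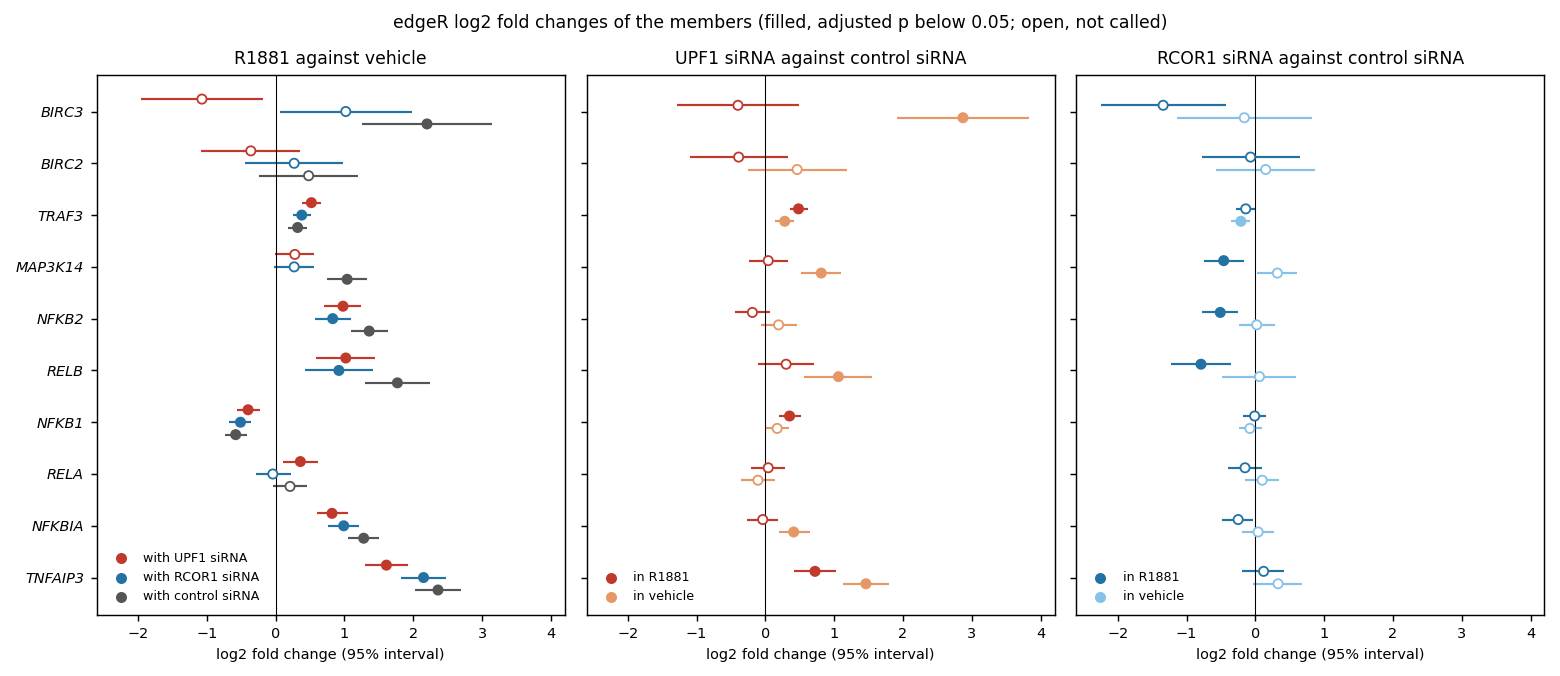
Log2 fold changes of the members with 95% intervals from edgeR, for R1881 against vehicle in each siRNA arm (left), UPF1 siRNA against control siRNA (centre) and RCOR1 siRNA against control siRNA (right); filled points passed an adjusted p of 0.05. The BIRC3 point for UPF1 siRNA lies at 2.87 in vehicle and -0.40 in R1881, and NFKB1 is the one member called below 0 with R1881.

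Counted over the members, androgen changed 7 of 10 with UPF1 siRNA (6 higher, 1 lower), 6 of 10 with RCOR1 siRNA (5 higher, 1 lower) and 8 of 10 with control siRNA (7 higher, 1 lower). Of all genes tested, 41.6%, 31.2% and 37.7% were called in the same comparisons. The median log2 fold change of the members was 0.44, 0.60 and 1.16 in that order of siRNAs, while the median of all genes was -0.008, 0.024 and 0.022.

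UPF1 siRNA against control siRNA changed 6 of 10 members in vehicle, all higher, where 34.6% of all genes were called. In R1881 it changed 3 of 10, TRAF3, NFKB1 and TNFAIP3, all higher, where 33.3% of all genes were called. That share in R1881 is near the background. The 2 comparisons share no libraries, but each uses the control libraries of the RCOR1 comparison at the same treatment. The control libraries also enter the R1881 response in control cells and both interactions, so these results are not independent of each other.

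RCOR1 siRNA against control siRNA changed 1 of 10 members in vehicle, TRAF3, which was lower, where 11.5% of all genes were called. In R1881 it changed 3 of 10, MAP3K14, NFKB2 and RELB, all lower, where 12.4% of all genes were called. Each of these 4 calls was lost when certain single libraries were left out, as given above.

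UPF1 siRNA stood above RCOR1 siRNA for 7 of 10 members in vehicle, where 33.1% of all genes were called, and for 6 of 10 in R1881, where 40.6% were called. None was called lower. BIRC3 differed by 3.03 ± 0.456 in vehicle (log2; edgeR adjusted p = 9.98e-05) and by 0.94 ± 0.429 in R1881 (edgeR adjusted p = 0.0926). In R1881 it passed without replicate 1 of UPF1 siRNA with R1881 (1.27, adjusted p = 0.0313), without replicates 1 and 2 (1.83, adjusted p = 0.00395), without the low-count filter (0.91, adjusted p = 0.000668) and with GC offsets (1.6, adjusted p = 5.97e-06), and it was 0.08 without replicate 3. RELB differed by 1.0 ± 0.229 in vehicle and 1.09 ± 0.203 in R1881 (edgeR adjusted p = 0.0031 and 0.000575). Without both AT-poor libraries the calls in R1881 were lost for RELB (0.92, adjusted p = 0.0527), MAP3K14 (0.30, adjusted p = 0.351), NFKB1 (0.31, adjusted p = 0.112), NFKB2 (0.19, adjusted p = 0.534) and TNFAIP3 (0.62, adjusted p = 0.0638). The NFKB1 call in vehicle was lost without replicate 1 or 2 of UPF1 siRNA or replicate 1 or 3 of RCOR1 siRNA (adjusted p up to 0.0907), and in every other setting but GC offsets (adjusted p between 0.069 and 0.368). The NFKBIA call in vehicle was lost without replicate 1 of UPF1 siRNA (0.29, adjusted p = 0.0745) or replicate 3 of RCOR1 siRNA (0.31, adjusted p = 0.0623), and with library size alone, no low-count filter or only the groups compared (adjusted p between 0.0661 and 0.0964). The NFKB2 call in R1881 was lost without replicate 1 or 2 of UPF1 siRNA or replicate 2 or 3 of RCOR1 siRNA (adjusted p up to 0.197), and in every other setting but GC offsets (adjusted p between 0.0501 and 0.534).

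The difference in androgen response between UPF1 siRNA and control siRNA was called for 2 of 10 members, BIRC3 and MAP3K14, where 2.72% of all genes were called. Between RCOR1 siRNA and control siRNA it was called for 0 of 10 members by edgeR, where 0.767% of all genes were called. For MAP3K14 the value was -0.77 with either siRNA. At an unadjusted p under 0.05, 7 of 10 members passed for UPF1 siRNA, against 19.6% of all genes, and 3 of 10 for RCOR1 siRNA, against 10.2% of all genes. Of the 7, TRAF3 was above 0 (0.20 ± 0.0914) and the others were below 0. The 3 for RCOR1 siRNA, MAP3K14, NFKB2 and RELB, were below 0. The DESeq2 Wald test also called 2 and 0 members. The members, BIRC3 and MAP3K14 among them, were chosen with earlier results of these data known. The shares of members called here and above therefore describe the set and are no test of it. The median interaction of the members was -0.60 for UPF1 siRNA and -0.28 for RCOR1 siRNA, against 0.003 and 0.005 for all genes.

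Among other genes of the non-canonical branch, 11 of 20 listed were tested. UPF1 siRNA against control siRNA in vehicle called 5 higher and 1 lower, where 34.6% of all genes were called, with a median log2 fold change of 0.35 against 0.032 for all genes. TNFRSF12A, the receptor for the ligand TWEAK, averaged 25.6 CPM with UPF1 siRNA and 8.73 CPM with control siRNA in vehicle, a rise of 1.55 ± 0.17 (log2; edgeR adjusted p = 4.14e-06). OTUD7B, a deubiquitinase that acts on TRAF3, averaged 262 and 133 CPM in the same groups. Like BIRC3 and MAP3K14, both had a called UPF1 interaction below 0, of -1.13 ± 0.237 for TNFRSF12A (edgeR adjusted p = 0.0183) and -0.30 ± 0.0749 for OTUD7B (edgeR adjusted p = 0.0434). In R1881, RCOR1 siRNA called 2 higher and 2 lower, where 12.4% of all genes were called. The lower ones were TNFRSF12A (-0.98 ± 0.178) and LTBR, the lymphotoxin receptor (-0.46 ± 0.119).

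The list of canonical signalling genes upstream of the factors had 23 of 25 tested. In R1881, UPF1 siRNA against control siRNA called 2 higher and 2 lower, a smaller share than the 33.3% of all genes, and 8 higher and 2 lower in vehicle, where 34.6% of all genes were called. The largest change in vehicle was TAB3, an adaptor of the kinase TAK1, at 0.84 ± 0.28 (log2; edgeR adjusted p = 0.0287). R1881 in control cells called 9 higher and 1 lower, where 37.7% of all genes were called, led by MALT1, a paracaspase, with 320 CPM in R1881 against 102 CPM in vehicle. RCOR1 siRNA in R1881 called 1 higher and 4 lower, where 12.4% of all genes were called, led by IRAK2, a kinase of the interleukin-1 receptor, with 5.31 CPM against 10.3 CPM in control cells.

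Of the other inhibitors and ubiquitin editors, 19 of 21 were tested. Of these, UPF1 siRNA against control siRNA called 6 higher and 2 lower in R1881 and 9 higher and 2 lower in vehicle, where 33.3% and 34.6% of all genes were called. NFKBIB, which encodes IkappaB-beta, averaged 8.68 CPM with UPF1 siRNA and 3.20 CPM with control siRNA in vehicle, a rise of 1.42 ± 0.199 (log2; edgeR adjusted p = 4.37e-05). OTULIN, which removes linear ubiquitin chains, rose with R1881 by 1.41 with UPF1 siRNA, 1.45 with RCOR1 siRNA and 1.37 with control siRNA. RCOR1 siRNA called 0 higher and 2 lower in R1881, BCL3 (-0.81 ± 0.192) and TNIP2 (-0.65 ± 0.131), where all genes had 12.4% called.

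Textbook targets of NF-kappaB were mostly scarce in these cells, and 18 of 36 were tested. Among them, UPF1 siRNA against control siRNA called 5 higher and 2 lower in R1881, and 11 higher and 2 lower in vehicle, where 33.3% and 34.6% of all genes were called, with a median log2 fold change of 0.76 in vehicle and -0.11 in R1881. The chemokine CCL20 averaged 2.23 CPM with UPF1 siRNA and 0.277 CPM with control siRNA in R1881, and 0.931 and 0.105 CPM in vehicle. The chemokine CXCL8 averaged 2.38 CPM with UPF1 siRNA and 0.913 CPM with control siRNA in R1881. With R1881 in control cells 8 targets were higher and 4 lower, where 37.7% of all genes were called. The cytokine gene IL1B was among the lower ones, with 1 count over the R1881 libraries against 39 counts over the vehicle libraries.

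A list of other inhibitors of apoptosis and of their antagonists had 6 genes tested. UPF1 siRNA against control siRNA called 1 higher and 2 lower in vehicle, where 34.6% of all genes were called. The higher one was the antagonist DIABLO (1.49 ± 0.457, log2). The lower ones were the inhibitor BIRC5 (-1.36 ± 0.171) and the antagonist HTRA2 (-0.47 ± 0.138). BIRC5 (survivin), a gene of dividing cells, averaged 26.9 CPM with UPF1 siRNA and 68.7 CPM with control siRNA in vehicle, and it fell with R1881 under every siRNA.

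Some sensors of double-stranded RNA and their adaptors can signal to NF-kappaB. Of 12 tested, UPF1 siRNA against control siRNA called 5 higher in R1881 and 8 higher in vehicle, with none lower, where 33.3% and 34.6% of all genes were called in either direction. DHX58 averaged 5.88 CPM with UPF1 siRNA and 1.72 CPM with control siRNA in vehicle, and OAS1 averaged 51.6 and 15 CPM. Of 10 interferon-induced marker genes, 9 were called higher with UPF1 siRNA in each treatment, with a median log2 fold change of 0.95 in R1881 and 1.36 in vehicle. RSAD2, an antiviral enzyme, averaged 97.2 CPM with UPF1 siRNA and 14.7 CPM with control siRNA in vehicle. RCOR1 siRNA called 3 of these markers, all higher, in vehicle, where 11.5% of all genes were called. The calls of this and the other lists were not recomputed without the AT-poor libraries, and the part of these genes in the changes of BIRC3 and MAP3K14 was not tested.

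**Figure D4:**
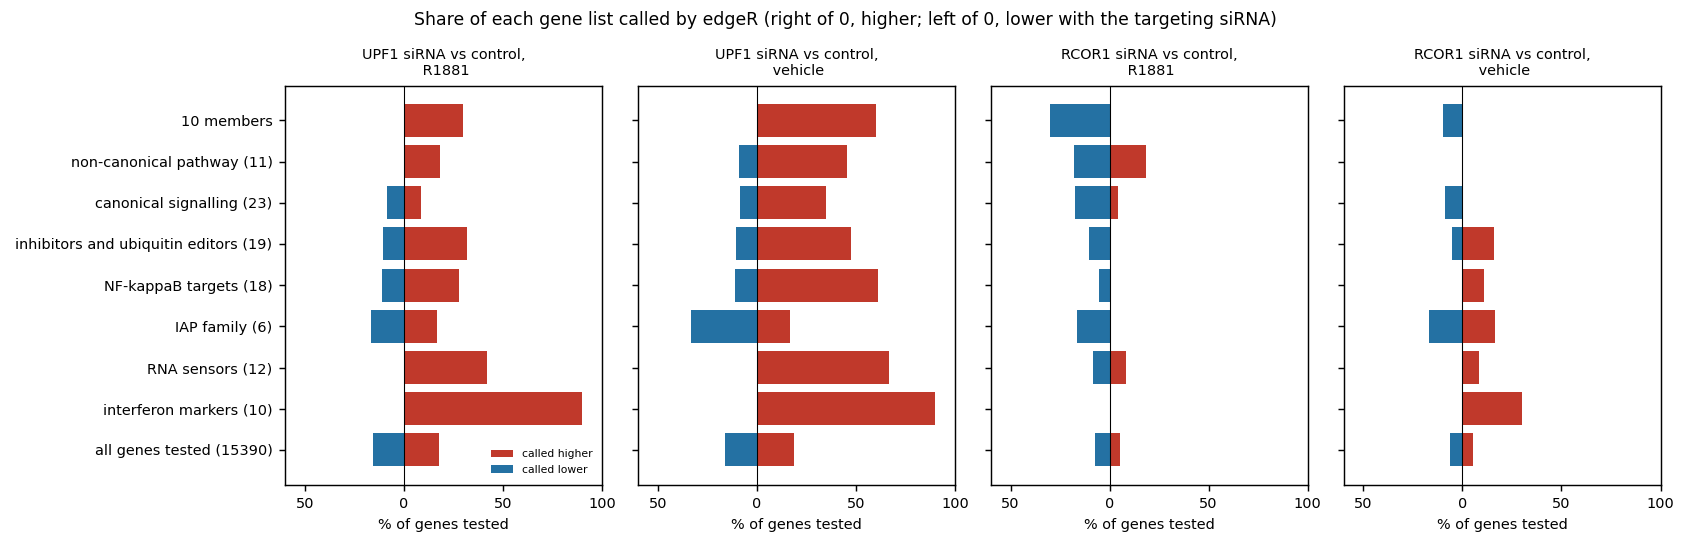
Share of the genes tested in each list (numbers in brackets) that edgeR called higher (right of 0) or lower (left of 0) with UPF1 siRNA or RCOR1 siRNA against control siRNA, in R1881 and in vehicle, above the share over all 15390 genes. With UPF1 siRNA in vehicle 6 of the 10 members, 8 of 12 RNA sensors and 9 of 10 interferon markers were called higher.

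The genes most like BIRC3 and MAP3K14 were sought among 6243 genes whose mean log2 CPM differed by at least 1 between groups, by Pearson's r over the 6 group means, which describes these groups and carries no test. For BIRC3 they were KDM7A (0.988), a histone demethylase gene, UGT1A1 (0.975), NFKBIL1 (0.968), STXBP5 (0.953) and FOS (0.951), a subunit of AP-1. NFKBIL1 varied widely within groups, with 3.97 ± 1.16 CPM with UPF1 siRNA and vehicle and 2.27 ± 1.82 CPM with control siRNA and vehicle. KDM7A, UGT1A1 and STXBP5 also varied, with 59.6 ± 25.5, 0.862 ± 0.322 and 81.7 ± 28.8 CPM with UPF1 siRNA and R1881. FOS averaged 1.17 CPM with UPF1 siRNA and R1881, 4.16 CPM with UPF1 siRNA and vehicle, 1.87 CPM with control siRNA and R1881 and 0.585 CPM with control siRNA and vehicle. UGT1A1 shares exons with other UGT1A genes, so its count is uncertain. For MAP3K14 they were CAPN2 (0.983), RP3-475N16.9 (0.978), FHIT (0.978), CTC-428H11.2 (0.975) and SPRED2 (0.973). CAPN2, a calpain protease subunit, averaged 215 CPM with UPF1 siRNA and R1881, 152 CPM with UPF1 siRNA and vehicle, 202 CPM with control siRNA and R1881 and 95.2 CPM with control siRNA and vehicle.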

How the data were processed

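The deposited values were raw read counts, whole numbers per gene and library with no normalization by the authors. The submitters' processing notes name bcl2fastq 2.20, STAR 2.7.9a, the build GRCh38.p7, and featureCounts from Subread 1.6.4. For the annotation release and the strand setting, nothing is given in the sources used here. BIRC2 and BIRC3 are paralogs, and reads from stretches they share are of uncertain assignment. Positions, exon lengths and GC content came from GENCODE v29 on GRCh38, matched by gene identifier without its version, which gave a GC value for 98.8% of the genes tested.

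All 18 libraries were used, 3 per group. In R 4.3.3, edgeR 4.0.16 removed low counts by filterByExpr, which left 15390 genes, scaled libraries by TMM, and tested 11 contrasts by the quasi-likelihood F test in a model with 1 mean per group. A gene was called at a Benjamini-Hochberg adjusted p under 0.05 over all genes tested. Each SE was obtained from the estimate and its F statistic, and SE and intervals cover counting error and the spread between these libraries. CPM are TMM-scaled. Libraries of one group differed by more than sampling noise in every pair (chi-square per degree of freedom between 2.98 and 46.2). For an interaction, the R1881 effect under control siRNA was subtracted from that under UPF1 or RCOR1 siRNA. The test was checked on simulated counts, where small changes were recovered less often than large ones, so a member that was not called is not shown to be unchanged. Replicate numbers follow accession order and only name libraries.

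Alternatives were DESeq2 size factors, library size alone, no low-count filter, the DESeq2 1.42.0 Wald test, fits of only the groups compared, each library left out, the 2 AT-poor libraries left out and, chosen after seeing the data, offsets for GC content. Named genes were the 10 members, at most 3 called genes with the largest change per list and comparison, and the 5 genes most like BIRC3 and MAP3K14. IL1B is given by its counts, since its fold rests on groups near 0. The members and lists were chosen with earlier results of these data known.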

Additional observations from a re-analysis of the deposited data

Results flagged for a closer look

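The androgen response of BIRC3 differed between UPF1 siRNA and control siRNA by -3.26 ± 0.61 on the log2 scale (edgeR adjusted p = 0.00969). BIRC3 had 18, 21.3 and 68.9 CPM in R1881 and 59.8, 80.9 and 84.5 CPM in vehicle with UPF1 siRNA, against 27.9, 58.0 and 55.7 CPM in R1881 and 12.2, 7.63 and 11.0 CPM in vehicle with control siRNA. Without replicates 1 and 2 of UPF1 siRNA with R1881 it was -2.31 (adjusted p = 0.0863), from a fit in which that group has 1 library. The part of the AT-poor content of those libraries was not tested.

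The androgen response of MAP3K14 differed between the same arms by -0.77 ± 0.189 (edgeR adjusted p = 0.0425), a call lost when 9 of 12 libraries were left out in turn. With RCOR1 siRNA in place of UPF1 siRNA the MAP3K14 difference was also -0.77 ± 0.191, and it was not called (edgeR adjusted p = 0.0779). The same response in control cells was subtracted in both. The BIRC3 and MAP3K14 entries stand here because their difference between UPF1 siRNA and control siRNA itself passed the test.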

How the results depend on the processing

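Of 1480 alternative values for the 110 member results, 1312 kept direction and side of the threshold, 85 lost a call, 39 gained one, and 44 changed sign, all of them for differences that were not called. Of the 49 called results, 30 kept their call under all alternatives run. No paired analysis was possible because the labels give no replicate numbers, and accession order does not pair libraries.

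The changes of sign were these, all log2. Library size alone gave -0.03 for RELA (R1881 response, control siRNA), 0.07 for NFKBIA (UPF1 siRNA against control siRNA in R1881), and 0.02 for BIRC2 and 0.07 for NFKB1 (RCOR1 siRNA against control siRNA in R1881). That NFKB1 value was 0.01 without the low-count filter and 0.02 with only the groups compared. Without the AT-poor libraries, BIRC2 was 0.29 (R1881 response, UPF1 siRNA), 0.24 (UPF1 siRNA against control siRNA in R1881) and 0.31 (UPF1 siRNA against RCOR1 siRNA in R1881), and UPF1 siRNA against control siRNA in R1881 gave 0.50 for BIRC3, -0.16 for MAP3K14 and -0.15 for RELA. GC offsets gave BIRC2 0.07 (R1881 response, UPF1 siRNA) and 0.13 (UPF1 siRNA against RCOR1 siRNA in R1881), RELA 0.06 (R1881 response, RCOR1 siRNA), BIRC3 0.19 and RELA -0.01 (UPF1 siRNA against control siRNA in R1881), and NFKBIA -0.01 (RCOR1 siRNA against control siRNA in vehicle). With a library left out, RCOR1 siRNA against control siRNA in vehicle lay between -0.12 and 0.34 for BIRC2, -0.48 and 0.02 for BIRC3, -0.08 and 0.15 for NFKB2, -0.07 and 0.17 for RELB, and -0.03 and 0.10 for NFKBIA, and in R1881 between -0.30 and 0.12 for BIRC2 and -0.05 and 0.06 for NFKB1. UPF1 siRNA against control siRNA lay, in R1881, between -0.05 and 0.20 for MAP3K14, -0.07 and 0.16 for RELA and -0.15 and 0.08 for NFKBIA, and in vehicle between -0.19 and 0.01 for RELA. The R1881 response of RELA with RCOR1 siRNA lay between -0.11 and 0.01, and the RCOR1 interaction of BIRC2 between -0.43 and 0.06.

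Members called with RCOR1 siRNA against control siRNA in vehicle numbered 0, against 1, with DESeq2 size factors, library size alone, no low-count filter, the DESeq2 Wald test and only the groups compared, and 0 with each library left out. In R1881 they numbered 1 with library size alone and with only the groups compared, 5 with GC offsets, and 0 to 3 with a library left out. The UPF1 interaction called 1 member with DESeq2 size factors, library size alone and only the groups compared, 0 with the AT-poor libraries left out, 5 with GC offsets, and 1 to 3 with a library left out. The RCOR1 interaction called 3 members with GC offsets, BIRC3, MAP3K14 and NFKB2. UPF1 siRNA against control siRNA in R1881 called 2 to 5 members with a library left out, and UPF1 siRNA against RCOR1 siRNA in R1881 called 2 with the AT-poor libraries left out.

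Genes called moved as follows. The UPF1 interaction called 1320 without the low-count filter, 639 with the DESeq2 Wald test, 177 with only the groups compared, 60 without the AT-poor libraries, 1679 with GC offsets and 185 to 1166 with a library left out, against 419. The RCOR1 interaction called 57 with library size alone, 27 with only the groups compared, 479 with GC offsets and 50 to 122 with a library left out, against 118. RCOR1 siRNA against control siRNA called, in R1881, 745 with only the groups compared, 3338 with GC offsets and 1092 to 1425 with a library left out, against 1907. In vehicle it called 744, 3462 and 1118 to 1443, against 1772. Without the AT-poor libraries, 2924 genes were called for R1881 with UPF1 siRNA, 1904 for UPF1 siRNA against control siRNA in R1881 and 2342 for UPF1 siRNA against RCOR1 siRNA in R1881. The cause of these shifts was not tested. RELB, at 1.74 to 8.75 CPM, had the fewest counts of the members, and its changes were the least precise after those of BIRC3 and BIRC2.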
